A study of Homo sapiens with 12 samples.

Results

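The account covers PC3 cells, a human prostate carcinoma line, in which LARP4B was depleted with siRNA (siLARP4B) and compared with PC3 cells given a control siRNA (siControl). The libraries were taken by their labels, 2 of siLARP4B and 2 of siControl, which makes 4 of the 12 libraries of the series. Both groups received 10 nM siRNA in the lipid reagent Lipofectamine RNAiMAX, and poly(A) RNA was collected 72 h later, so the reagent and the siRNA load were shared by treated and control cells. The other 8 libraries are PC3 cells with siRNA against LARP4A (gene symbol LARP4), and MG63 cells, a human osteosarcoma line, with the same 3 siRNA treatments, 2 libraries each. The replicates of a condition are described as biological. The labels give neither the siRNA sequences nor how many siRNAs were used per target, so the effects of losing LARP4B and any other effect of these siRNAs cannot be told apart here.

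LARP4B is a member of the La-related protein family. These proteins bind RNA, and the pair encoded by LARP4 and LARP4B also binds the cytoplasmic poly(A)-binding protein and has been linked to the stability and translation of messenger RNA. LARP4B has been found on AU-rich stretches of 3′ untranslated regions. The comparison asks which transcripts PC3 cells hold at a higher or lower level when LARP4B transcript is depleted.

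LARP4B transcript (chr10:806914-931705, minus strand, GRCh38) stood at 7.02 and 7.18 FPKM (fragments per kilobase of gene model, scaled to the library total) in the siControl libraries and at 1.35 and 1.26 FPKM in the siLARP4B libraries. That left 18.3% of the control level (log2 -2.45, SE 0.077, edgeR adjusted p 9.8e-12), and the groups did not overlap. In PC3 cells given siLARP4A, LARP4B was at 6.69 and 6.97 FPKM. LARP4, the paralogue, was at 19 and 19.4 FPKM in siControl and at 18.8 and 19 FPKM in siLARP4B (log2 -0.03, edgeR adjusted p 0.69), against 2.36 and 2.47 FPKM in siLARP4A. In MG63 the log2 change of LARP4B was -1.70, a smaller fall than in PC3 (edgeR adjusted p 0.00013 for the difference).

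**Figure D1:**
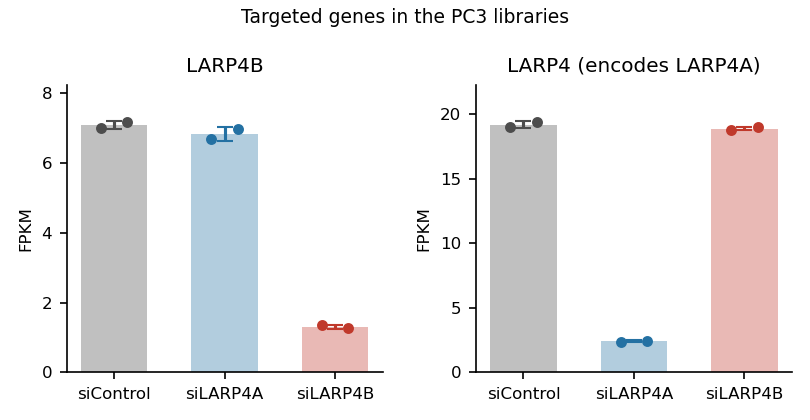
FPKM of LARP4B (left) and LARP4 (right) in the 6 PC3 libraries; points are libraries, bars the means and whiskers the SD (n = 2). LARP4B was at 1.35 and 1.26 in siLARP4B against 7.02 and 7.18 in siControl, while LARP4 lay between 18.8 and 19.4 in both groups.

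The 4 libraries held 16950119 to 19162928 fragments in all models, of which 94.4% and 94.5% (siControl) and 92.2% and 91.3% (siLARP4B) fell in the 1 model kept per gene symbol. The part of that difference in the results was not tested. Of 28163 symbols, 16065 had enough fragments to be tested. Of these, 6909 (43.0%) passed a Benjamini-Hochberg adjusted p of 0.05 in edgeR's quasi-likelihood test, 3688 higher (23.0%) and 3221 lower (20.0%) in siLARP4B. A change of at least 2-fold was reached by 560 of the higher (3.49% of tested) and 444 of the lower genes (2.76%). These counts depend on the method, with 324 higher by DESeq2, and 68 higher and 190 lower by limma on log2(FPKM + 1). The balance of directions does too, since DESeq2 called 2523 genes higher and 2858 lower. The median log2 change over all tested genes was 0.04. Except for LARP4, each gene given below or above with its level in all 4 libraries had its 2 groups apart. Its siLARP4B libraries lay either both above or both below the siControl libraries. For the 12 highest and 12 lowest genes this was part of the rule that chose them. The others had passed the threshold, which favours such separation, so it is no further support for them. Epithelial markers summed to 852 to 868 FPKM in siControl and 796 to 822 in siLARP4B. Of 7 prostate luminal and androgen-response markers, which summed to 150 to 161 FPKM in siControl and 166 to 173 in siLARP4B, 3 were tested and none passed, and FOLH1 had no fragment. The PC3 label therefore rested on epithelial genes and HOXB13 here, as androgen-response genes were at or near 0. Among neuroendocrine markers, CHGA had no fragment. Endothelial markers summed to 7.12 to 7.62 FPKM in siControl and 8.62 to 8.74 in siLARP4B.

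The 12 lowest genes, taken by their log2 change in this comparison, included GNB4, POGLUT3, DPYSL3 and EXOSC3. GNB4, a G protein beta subunit, fell from 8.06 and 8.02 FPKM to 0.752 and 1.05 FPKM (log2 -3.18, SE 0.121, edgeR adjusted p 3.4e-11), and 27.6% of its exonic bases overlap AC007620.2 on the opposite strand. POGLUT3, a protein O-glucosyltransferase, fell from 11.7 and 12.2 to 1.36 and 1.68 FPKM (log2 -2.99, edgeR adjusted p 1.7e-11). DPYSL3, a cytoskeleton-associated protein, fell from 29.3 and 28.9 to 5.31 and 5.46 FPKM (log2 -2.44, edgeR adjusted p 1.5e-13). EXOSC3 encodes a subunit of the RNA exosome. Its level fell from 18.1 and 16.9 to 3.48 and 3.64 FPKM (log2 -2.31, edgeR adjusted p 1.2e-10). TYMS, thymidylate synthase, fell from 58.9 and 60.6 to 13 and 14.7 FPKM (log2 -2.11, edgeR adjusted p 1.4e-11), with 39.1% of its exonic bases shared with ENOSF1. PRPS2, which makes phosphoribosyl pyrophosphate for nucleotide synthesis, fell from 38.9 and 39.4 to 10.1 and 9.06 FPKM (log2 -2.04, edgeR adjusted p 1.6e-11). The other 6 of the 12 lowest genes, with log2 changes from -2.21 to -2.02, were ISOC1, FAM111B, HIPK3, TYMSOS, SNX15 and GALNT7. SNX15 shares 39.4% of its exonic bases with ARL2-SNX15. In the separate MG63 libraries all 12 of these genes were also lower at the threshold (15.7% of all tested genes were lower there). Their log2 changes in MG63 ran from -2.10 for GNB4 to -0.59 for FAM111B. The change differed between the lines for all 12, in a test that uses the PC3 values they were chosen by.

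Among the 12 highest genes, HMOX1, the inducible heme oxygenase, rose from 11.8 and 11.9 FPKM to 49.4 and 50.9 FPKM (log2 2.07, SE 0.0703, edgeR adjusted p 1.4e-11). In MG63 it rose as well (log2 2.31), and the difference between the lines did not pass (edgeR adjusted p 0.14). STMN3, a stathmin-family microtubule regulator typical of neurons, rose from 12.5 and 12 to 52.2 and 46.6 FPKM (log2 2.00, edgeR adjusted p 2.2e-11). VGF, a precursor of secreted neuropeptides, rose from 3.65 and 3.23 to 9.31 and 8.93 FPKM (log2 1.40, edgeR adjusted p 9.3e-07). SYP, a synaptic vesicle protein used as a neuroendocrine marker, rose from 0.759 and 0.542 to 2.61 and 2.73 FPKM (log2 2.03, edgeR adjusted p 2e-06), while ENO2, another such marker, fell from 28.6 and 26.8 to 19.7 and 19.4 FPKM (log2 -0.51, edgeR adjusted p 0.0002). The summed level of the neuroendocrine markers went from 27.3 to 29.4 FPKM in siControl to 22.2 to 22.3 in siLARP4B. DMPK, a protein kinase known from myotonic dystrophy, rose from 5.19 and 5.34 to 13.7 and 14.1 FPKM (log2 1.39, edgeR adjusted p 7.6e-09), and IDUA, a lysosomal hydrolase, from 4.54 and 4.52 to 12.3 and 11.1 FPKM (log2 1.36, edgeR adjusted p 2e-07). GNG2, a G protein gamma subunit, rose from 6 and 5.89 to 15.1 and 14.9 FPKM (log2 1.33, edgeR adjusted p 5.5e-09). The remaining 6 were YJEFN3, NPB, CPZ, HSF4, FAM222A-AS1 and VSTM2L, with log2 changes from 1.30 to 1.58. NPB and CPZ share 89.8% and 58.4% of their exonic bases with PCYT2 and GPR78, and YJEFN3 and HSF4 share 34.1% and 31.4% with AC011448.1 and AC074143.1. Of the 12 highest genes 3 were higher at the threshold in MG63, where 16.9% of all tested genes were. The change differed between the lines for 8 of the 12 (25.2% of all tested genes). This test too uses the PC3 values the 12 were chosen by, so the 2 shares are not comparable.

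Cells copy their DNA in S phase with a helicase loaded at origins, a polymerase machinery at the fork and a supply of nucleotides, and they divide with mitotic kinases and the spindle. Transcription of the S phase genes is driven by E2F factors. That of the mitotic genes is repressed by the DREAM complex and activated by the B-MYB/FOXM1 complexes at CHR elements. Promoters of 4 members are shown because they carry these motifs, in capitals, within 250 bases before to 50 bases after the RefSeq start (GRCh38.p14). MCM3 and E2F1 hold the E2F motif, and CCNB2 and PLK1 the CHR motif. They lie at chr6:52284693-52284992 (MCM3, minus strand), chr20:33686336-33686635 (E2F1, minus strand), chr15:59104896-59105195 (CCNB2, plus strand) and chr16:23678639-23678938 (PLK1, plus strand).
MCM3: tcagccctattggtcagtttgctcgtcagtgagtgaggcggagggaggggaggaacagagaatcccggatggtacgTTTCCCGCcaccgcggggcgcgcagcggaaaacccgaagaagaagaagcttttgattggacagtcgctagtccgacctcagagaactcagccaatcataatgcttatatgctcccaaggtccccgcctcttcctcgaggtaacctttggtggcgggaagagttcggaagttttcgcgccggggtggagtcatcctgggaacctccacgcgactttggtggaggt
E2F1: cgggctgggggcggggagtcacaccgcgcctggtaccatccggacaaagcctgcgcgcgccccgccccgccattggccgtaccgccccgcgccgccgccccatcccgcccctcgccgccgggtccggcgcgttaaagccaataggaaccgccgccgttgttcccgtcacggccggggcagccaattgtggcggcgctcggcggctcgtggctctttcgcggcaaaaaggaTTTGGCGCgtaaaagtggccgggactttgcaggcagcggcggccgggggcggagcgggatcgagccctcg
CCNB2: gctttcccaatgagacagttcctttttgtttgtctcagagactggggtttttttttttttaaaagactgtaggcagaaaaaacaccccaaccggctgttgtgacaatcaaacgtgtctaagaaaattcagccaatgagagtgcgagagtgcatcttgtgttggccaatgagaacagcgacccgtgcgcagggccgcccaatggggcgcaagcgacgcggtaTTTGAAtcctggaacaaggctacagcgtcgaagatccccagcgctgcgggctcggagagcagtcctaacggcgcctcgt
PLK1: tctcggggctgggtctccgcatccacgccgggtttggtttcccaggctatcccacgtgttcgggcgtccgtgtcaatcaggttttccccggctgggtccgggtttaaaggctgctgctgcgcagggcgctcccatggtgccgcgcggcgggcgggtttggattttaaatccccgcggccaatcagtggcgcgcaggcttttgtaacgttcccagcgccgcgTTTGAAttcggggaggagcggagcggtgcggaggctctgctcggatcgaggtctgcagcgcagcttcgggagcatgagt

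Of 12070 promoters of tested genes, 3.57% held the E2F motif, TTTGGCGC or TTTCCCGC on either strand, against 21 of 48 (43.8%) in the replication list. The CHR motif, TTTGAA on either strand, was in 10% of all promoters and in 32 of 45 (71.1%) of the mitotic list. Over all promoters, the E2F motif was in 5.49% of genes that were lower, 2.98% of those higher and 3.06% of those that were neither. For the CHR motif these shares were 12.8%, 8.05% and 9.8%. A match is a description of letters in this window and no evidence of binding.

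Replication genes fell together. Of 56 members tested in the list for DNA replication and the G1/S transition, 53 were lower and none higher (20.0% of all tested genes were lower), with a median log2 change of -1.01. Licensing and origin firing (18 of 18 lower, median -1.13), the fork and chromatin assembly (18 of 18, median -0.96) and nucleotide supply (7 of 7, median -1.15) were lower throughout. MCM3, a subunit of the replicative helicase, fell from 52.2 and 50.9 FPKM to 19.7 and 19.5 FPKM (log2 -1.40, SE 0.0519, edgeR adjusted p 2.5e-11). CDT1, a licensing factor, fell from 17 and 14.7 to 6.46 and 5.98 FPKM (log2 -1.36, edgeR adjusted p 9.7e-09). RFC3, a subunit of the clamp loader, fell from 17.4 and 17.2 to 5.02 and 4.66 FPKM (log2 -1.84, edgeR adjusted p 6.4e-11). In each case the groups were far apart relative to the spread of their libraries. PCNA, the sliding clamp, fell from 139 and 143 to 68.7 and 65.4 FPKM (log2 -1.08, edgeR adjusted p 4.3e-10). TK1, thymidine kinase, fell from 53.2 and 54.6 to 16.7 and 14.1 FPKM (log2 -1.82, edgeR adjusted p 3.8e-11), and RRM2, the small subunit of ribonucleotide reductase, from 45.3 and 47.1 to 18.7 and 17.9 FPKM (log2 -1.34, edgeR adjusted p 9.6e-11). In RRM2, 20.2% of exonic bases are shared with AC007240.1.

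Among the G1/S regulators 10 of 13 were lower. E2F1, an S phase transcription factor, fell from 21.3 and 19.7 to 8.92 and 8.01 FPKM (log2 -1.28, SE 0.0899, edgeR adjusted p 2.1e-08), and E2F2 from 2.27 and 2.56 to 0.643 and 0.954 FPKM (log2 -1.62, edgeR adjusted p 6.7e-07). CCNE2, an E-type cyclin, fell from 3.96 and 4.99 to 1.03 and 1.13 FPKM (log2 -2.06, edgeR adjusted p 1e-08), with 37% of its exonic bases shared with INTS8. CCNE1, the other E-type cyclin, had a log2 change of -0.27 that did not pass (edgeR adjusted p 0.35). E2F3 and RBL2 were the other members that did not pass, and these 2 were named after their values were seen.

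Mitotic genes were lower as well. Of 54 members tested for G2/M and mitosis, 53 were lower and none higher, with a median log2 change of -1.11. At least a 2-fold fall was reached by 36 (2.76% of all tested genes). CDK1, the mitotic kinase, fell from 60.3 and 67 FPKM to 25.7 and 27.1 FPKM (log2 -1.28, SE 0.077, edgeR adjusted p 4e-09). CCNB1, its cyclin partner, fell from 53.6 and 53.7 to 28.1 and 26 FPKM (log2 -0.99, edgeR adjusted p 1.3e-09), and PLK1, which drives mitotic progression, from 49.3 and 53.1 to 23 and 23 FPKM (log2 -1.16, edgeR adjusted p 7.7e-11). MYBL2, which encodes B-MYB, fell from 46.5 and 47.7 to 18.2 and 18.4 FPKM (log2 -1.37, edgeR adjusted p 1.4e-11). FOXM1, a transcription factor of G2/M genes, fell from 29.4 and 30.2 to 14.6 and 13.6 FPKM (log2 -1.09, edgeR adjusted p 4.5e-10). ZWINT, a kinetochore protein, showed the list's deepest fall, from 97.3 and 98.1 to 29.7 and 28.3 FPKM (log2 -1.76, edgeR adjusted p 1.4e-11). TOP2A, which untangles DNA before division, fell from 46.5 and 47.3 to 20 and 20.1 FPKM (log2 -1.23, edgeR adjusted p 4.1e-10). MKI67, the proliferation marker Ki-67, fell from 19.2 and 21.8 to 7.29 and 7.79 FPKM (log2 -1.45, edgeR adjusted p 2e-06), and AURKA, a centrosomal kinase, from 43.7 and 45.8 to 25.4 and 26.1 FPKM (log2 -0.80, edgeR adjusted p 2.3e-08). The member that did not pass was FZR1, an activator of the anaphase-promoting complex (log2 0.14), named after its value was seen. In bulk RNA, fewer cells in a cycle phase and less RNA per cell cannot be told apart.

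**Figure D2:**
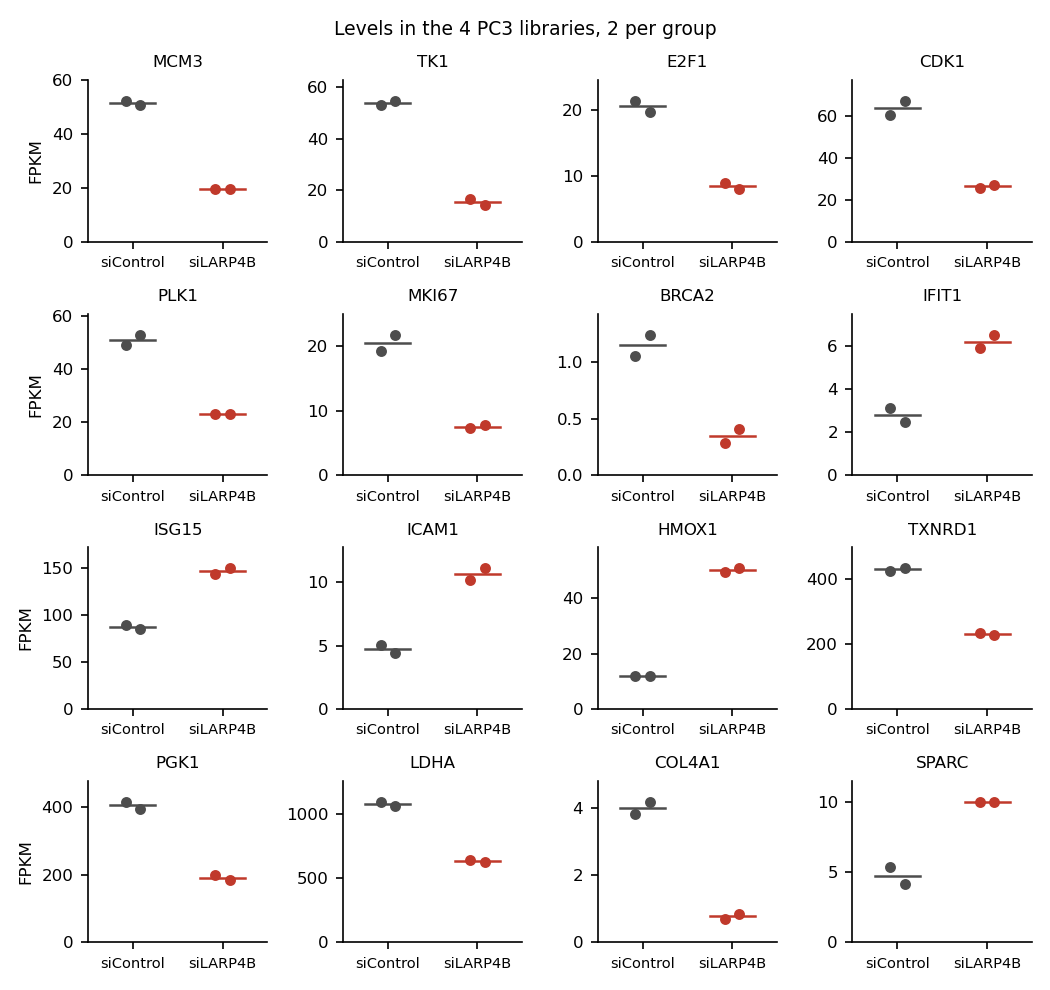
FPKM of 16 genes in the 4 PC3 libraries; points are libraries and lines the group means, each axis from 0. The cell cycle genes of the upper panels lie lower in siLARP4B (MCM3 at 19.7 and 19.5 against 52.2 and 50.9), while IFIT1, ISG15, ICAM1, HMOX1 and SPARC lie higher.

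Repair genes that act on replicating DNA were lower too. Of 38 members tested for homologous recombination, the Fanconi pathway and the replication checkpoint, 30 were lower and none higher, with a median log2 change of -0.75. BRCA2, a central gene of homologous recombination, fell from 1.05 and 1.24 to 0.288 and 0.41 FPKM (log2 -1.74, SE 0.174, edgeR adjusted p 1e-06). EXO1, an exonuclease that resects DNA ends, fell from 9.8 and 9.58 to 3.09 and 3.27 FPKM (log2 -1.62, edgeR adjusted p 7.5e-10). CLSPN, claspin, fell from 4.4 and 4.49 to 1.66 and 1.44 FPKM (log2 -1.52, edgeR adjusted p 5e-09), and CHEK1, the checkpoint kinase it activates, from 8.16 and 8.43 to 3.63 and 3.37 FPKM (log2 -1.25, edgeR adjusted p 3.1e-09). FANCD2, the Fanconi protein monoubiquitinated at stalled forks, fell from 7.31 and 6.49 to 3.35 and 3.17 FPKM (log2 -1.09, edgeR adjusted p 2.6e-08).

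Proliferation genes were also lower than in PC3 cells with the other knockdown, and their change differed from that in MG63. Against PC3 cells given siLARP4A, 50 of 56 replication genes and 53 of 54 mitotic genes were lower (25.4% of all tested genes were lower in this contrast, which uses the same siLARP4B libraries). In the test of the difference between the lines, which 25.2% of all tested genes passed and 11.4% passed as higher in PC3, 51 replication, 53 mitotic and 23 repair genes moved further down in PC3 than in MG63, where 13.8% of all tested genes did. In MG63 itself 32 replication and 14 mitotic genes were lower (15.7% of all tested genes were lower there), with medians of -0.20 and -0.07. PLK1 had a log2 change of -0.01 in MG63 and -1.16 in PC3 (edgeR adjusted p 5.3e-08 for the difference). AURKA rose in MG63 (log2 0.18) and fell in PC3 (edgeR adjusted p 6.6e-07 for the difference).

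**Figure D3:**
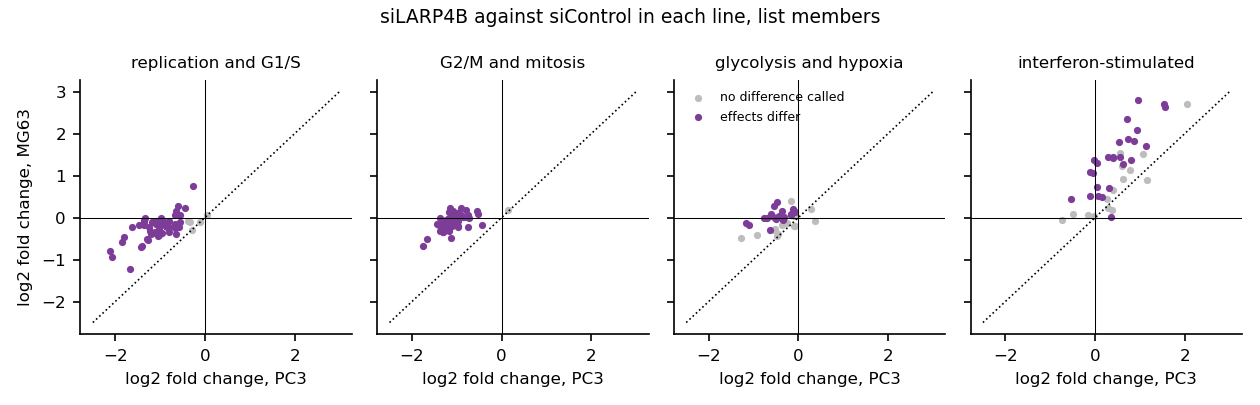
Log2 change of each list member, siLARP4B against siControl, in PC3 (horizontal) and MG63 (vertical); purple marks members whose effects differ between the lines at the threshold and the dotted line marks equal effects. Replication and mitotic members spread leftward, with MG63 medians of -0.20 and -0.07, and interferon-stimulated members lie mostly above the dotted line.

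Of 30 tested members among CDK inhibitors, D cyclins and stress arrest genes, 10 were higher and 8 lower (33.3% and 26.7%, against 23.0% and 20.0% of all tested genes), with a median log2 change of 0.05. CDKN1A, which encodes the CDK inhibitor p21, rose from 8.56 and 9.02 to 12.6 and 13 FPKM (log2 0.53, SE 0.0989, edgeR adjusted p 0.00044), and CDKN1B, which encodes p27, from 16.6 and 14.6 to 21.1 and 22.8 FPKM (log2 0.48, edgeR adjusted p 8.7e-05). The level of CDKN1A was nonetheless lower than in siLARP4A cells (log2 -0.61, edgeR adjusted p 3.7e-05). BTG2, an antiproliferative gene, rose from 0.674 and 0.693 to 1.49 and 1.51 FPKM (log2 1.12, edgeR adjusted p 0.0007). CDK6, the kinase partner of D cyclins, fell from 11.7 and 11.8 to 5.36 and 6.38 FPKM (log2 -1.01, edgeR adjusted p 1.1e-06). MDM2, a p53 target that degrades p53, fell from 7.6 and 8.04 to 3.96 and 4.1 FPKM (log2 -0.96, edgeR adjusted p 7.1e-08). CCND1, cyclin D1, had a log2 change of -0.07 (edgeR adjusted p 0.13), and passed as lower in a fit of the 4 libraries alone (-0.11, edgeR adjusted p 0.02).

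**Figure D4:**
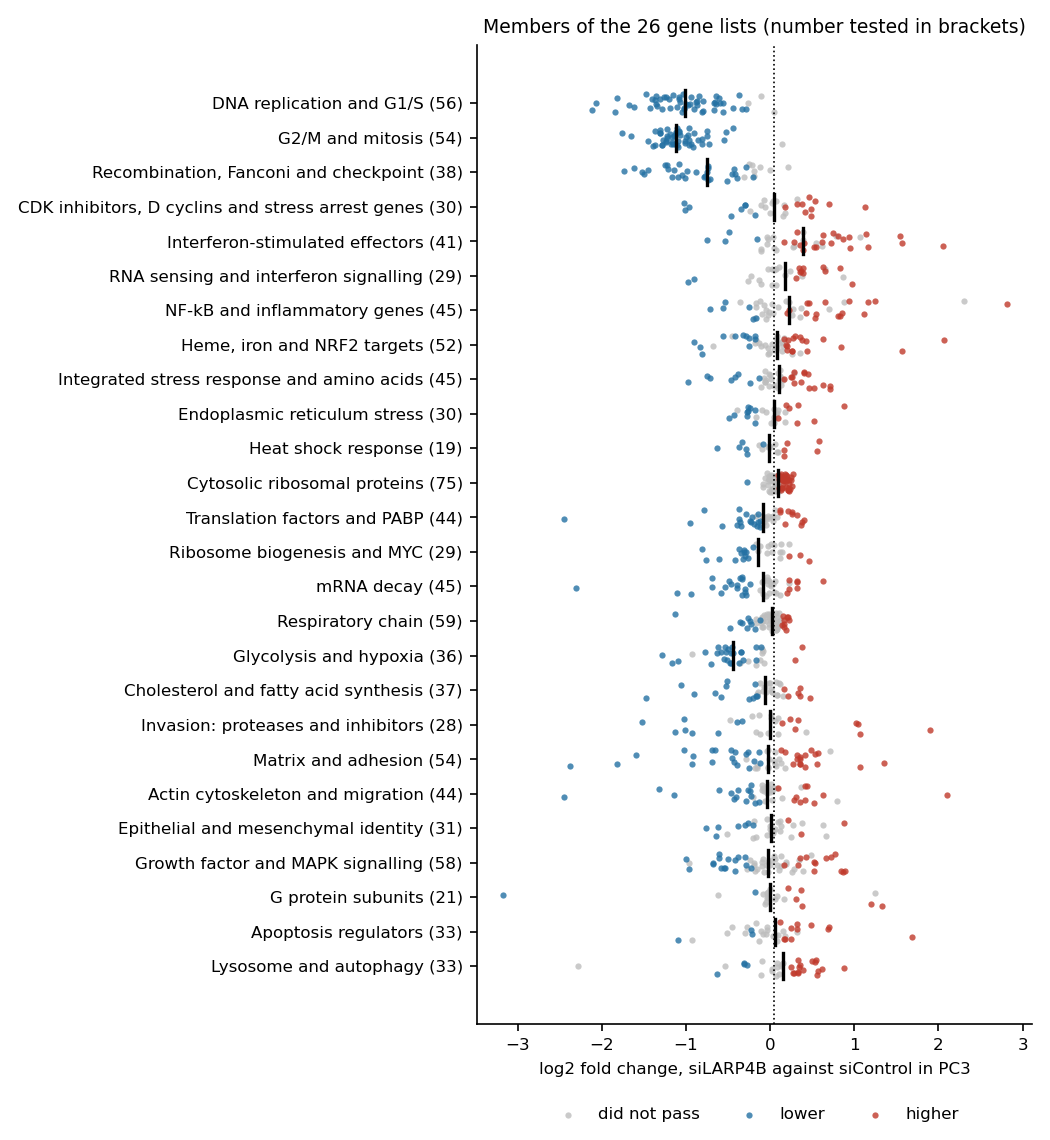
Log2 change of every tested member of the 26 gene lists, siLARP4B against siControl in PC3; each point is a gene, coloured by its call, the bars are list medians and the dotted line is the median of all tested genes. The 3 cell cycle and repair lists lie to the left, with medians of -1.01, -1.11 and -0.75, and the interferon-stimulated list to the right.

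Cells that sense viral RNA or interferon switch on antiviral effectors through the ISRE promoter motif. Of 41 tested interferon-stimulated effectors 21 rose and 4 fell (23.0% of all tested genes were higher), with a median log2 change of 0.40. The promoters of IFIT1 (chr10:89392373-89392672, plus strand) and IFI44L (chr1:78620198-78620497, plus strand) are shown for their ISRE matches, in capitals.
IFIT1: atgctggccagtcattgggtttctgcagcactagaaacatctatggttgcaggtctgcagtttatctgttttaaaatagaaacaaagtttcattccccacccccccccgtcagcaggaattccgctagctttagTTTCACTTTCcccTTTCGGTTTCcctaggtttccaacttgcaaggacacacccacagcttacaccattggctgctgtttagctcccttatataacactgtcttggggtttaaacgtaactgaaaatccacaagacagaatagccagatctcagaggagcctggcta
IFI44L: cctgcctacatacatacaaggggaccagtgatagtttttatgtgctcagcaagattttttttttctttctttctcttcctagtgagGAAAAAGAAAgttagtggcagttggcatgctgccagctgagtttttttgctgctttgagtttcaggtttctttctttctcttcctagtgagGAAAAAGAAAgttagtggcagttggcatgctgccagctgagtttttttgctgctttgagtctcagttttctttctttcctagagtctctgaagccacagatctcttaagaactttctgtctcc

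The ISRE motif is a pair of GAAA blocks 2 bases apart on either strand. It was in 2.84% of all promoters and in 22 of 32 (68.8%) of the antiviral effectors. Over all promoters its share did not follow the calls, at 2.76% of genes that were higher, 2.71% of those lower and 2.93% of those that were neither. IFIT1, which binds viral RNA, rose from 3.13 and 2.46 FPKM to 5.89 and 6.53 FPKM (log2 1.14, SE 0.0975, edgeR adjusted p 1.8e-07), and IFI44L from 0.789 and 0.78 to 2.05 and 2.64 FPKM (log2 1.56, edgeR adjusted p 2e-06). ISG15, a ubiquitin-like modifier, rose from 89.3 and 84.9 to 144 and 150 FPKM (log2 0.74, edgeR adjusted p 1.2e-06). In all 3 the groups were apart. OAS1, which makes the activator of RNase L, rose from 10.5 and 11.2 to 16.2 and 19.8 FPKM (log2 0.72, edgeR adjusted p 2.6e-05), and BST2, tetherin, from 4.67 and 3.41 to 8.91 and 9.19 FPKM (log2 1.16, edgeR adjusted p 0.00016). The 4 lower members were ISG20, UBE2L6, IFI35 and TRIM14, named after their values were seen, with log2 changes of -0.74, -0.53, -0.49 and -0.16. This count was 1 without siControl replicate 1 and 2 without siLARP4B replicate 2. Without siControl replicate 1 UBE2L6 did not pass (edgeR adjusted p 0.17), nor did IFI35 without that library (0.2) or without siLARP4B replicate 2 (0.28), and TRIM14 did not pass when any 1 of the 4 was left out (0.092 to 0.14). In MG63 34 members were higher, with a median of 1.22 (16.9% of all tested genes were higher there). The change was further up in MG63 than in PC3 for 25 members, against 13.8% of all tested genes. Leukocyte markers summed to 0.729 to 0.743 FPKM in siControl and 1.9 to 1.97 in siLARP4B, with no fragment of CD3E. None of them had more than 41 fragments in any of the 4 libraries, and their part in this result was not tested.

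Of the genes that sense RNA or relay interferon signals, 10 of 29 were higher and 2 lower (34.5% and 6.9%, against 23.0% and 20.0% of all tested genes), with a median log2 change of 0.18. DDX58, which encodes the RNA sensor RIG-I, rose from 1.09 and 1.29 to 2.38 and 2.36 FPKM (log2 0.98, SE 0.135, edgeR adjusted p 2.7e-05), and IFIH1, which encodes the sensor MDA5, from 1.88 and 1.76 to 2.67 and 2.98 FPKM (log2 0.62, edgeR adjusted p 0.0019). STAT2, a transcription factor of the interferon response, rose from 6.3 and 6.51 to 9.74 and 10.5 FPKM (log2 0.65, edgeR adjusted p 4.9e-06). STING1, an adaptor of DNA sensing, rose from 6.39 and 6.87 to 11.9 and 11.9 FPKM (log2 0.83, edgeR adjusted p 1.1e-06) and fell in MG63 (log2 -0.56, edgeR adjusted p 4.9e-07 for the difference). IRF2, a repressor of interferon genes, fell from 6.91 and 7.03 to 3.38 and 3.79 FPKM (log2 -0.97, edgeR adjusted p 4.7e-07). Of the 6 interferon genes 1 was tested and did not pass.

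In the NF-kB and inflammatory list 16 of 45 tested members were higher and 6 lower (35.6% and 13.3%, against 23.0% and 20.0% of all tested genes), with a median log2 change of 0.23. With fewer members tested, at a minimum mean of 5 FPKM, 9 were higher. The lower count was 3 without siControl replicate 2 and 3 without siLARP4B replicate 2. ICAM1, an adhesion molecule for leukocytes, rose from 5.07 and 4.42 to 10.2 and 11.1 FPKM (log2 1.16, SE 0.0917, edgeR adjusted p 7.5e-08), with 22% of its exonic bases shared with AC011511.5. CXCL8, a neutrophil chemokine, rose from 28.6 and 25.6 to 38.7 and 40 FPKM (log2 0.53, edgeR adjusted p 0.0004), and IL32, a cytokine, from 3.63 and 3.15 to 6.89 and 7.89 FPKM (log2 1.11, edgeR adjusted p 2.2e-05). The feedback inhibitors NFKBIA and TNFAIP3 rose too, NFKBIA from 29.8 and 28.5 to 40.5 and 38.6 FPKM (log2 0.43, edgeR adjusted p 0.00018) and TNFAIP3 from 1.86 and 1.59 to 3.37 and 2.86 FPKM (log2 0.85, edgeR adjusted p 6.5e-05). NFKB1, a subunit precursor, fell from 11.3 and 11.5 to 7.82 and 7.69 FPKM (log2 -0.56, edgeR adjusted p 1.1e-05). NFKBIA moved the opposite way in MG63 (log2 -0.54, edgeR adjusted p 8.8e-06 for the difference).

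Most glycolytic and hypoxia-response genes fell. Of 36 tested members 25 were lower and 2 higher (69.4% and 5.56%, against 20.0% and 23.0% of all tested genes), with a median log2 change of -0.44; the higher count was 1 when each of the 4 libraries was left out in turn. PGK1, phosphoglycerate kinase, fell from 415 and 394 FPKM to 200 and 183 FPKM (log2 -1.09, SE 0.0603, edgeR adjusted p 1.5e-09). LDHA, lactate dehydrogenase A, fell from 1090 and 1060 to 642 and 625 FPKM (log2 -0.78, edgeR adjusted p 9.1e-10), and SLC2A1, the glucose transporter GLUT1, from 52.2 and 47.9 to 31.4 and 30.3 FPKM (log2 -0.71, edgeR adjusted p 1.2e-06). BNIP3, a mitophagy receptor induced by hypoxia, fell from 106 and 103 to 48.4 and 44.7 FPKM (log2 -1.17, edgeR adjusted p 1.2e-08). HIF1A, the hypoxia-inducible factor subunit, fell from 112 and 118 to 82.2 and 81.6 FPKM (log2 -0.50, edgeR adjusted p 5e-06). In 22 members the change was further down in PC3 than in MG63, against 13.8% of all tested genes. In MG63 6 members were lower and 6 higher (15.7% and 16.9% of all tested genes were). LDHA had a log2 change of -0.01 in MG63 (edgeR adjusted p 4.1e-07 for the difference). Against siLARP4A cells 15 members were lower and 5 higher, with a median of -0.105 (25.4% and 26.3% of all tested genes were). Respiratory chain genes counted 9 higher and 10 lower of 59 tested (15.3% and 16.9%), with a median of 0.02 that ranged from -0.03 to 0.06 over the alternatives. The higher count was 0 without siControl replicate 2, 2 without siLARP4B replicate 1 and 1 without siLARP4B replicate 2.

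In the list of heme, iron and NRF2 target genes 17 of 52 tested members were higher and 11 lower (32.7% and 21.2%, against 23.0% and 20.0% of all tested genes), with a median log2 change of 0.08. Heme breakdown and iron genes counted 7 higher and 1 lower of 15, and glutathione and thioredoxin genes 3 higher and 6 lower of 15. Beside HMOX1, FTL, the ferritin light chain, rose from 815 and 818 to 948 and 938 FPKM (log2 0.20, edgeR adjusted p 0.00024). TXNRD1, thioredoxin reductase, fell from 427 and 434 to 234 and 229 FPKM (log2 -0.90, SE 0.037, edgeR adjusted p 6.8e-11), and SLC7A11, the cystine importer, from 9.25 and 9.94 to 5.42 and 5.6 FPKM (log2 -0.81, edgeR adjusted p 1.8e-06). BACH1, a repressor of HMOX1, fell from 4.54 and 4.23 to 2.69 and 3.31 FPKM (log2 -0.56, edgeR adjusted p 0.00081). ABCC3, an efflux transporter, rose from 14.6 and 15.1 to 26.6 and 27.2 FPKM (log2 0.84, edgeR adjusted p 2.8e-07) and fell in MG63 (log2 -0.80). Of the stress-response lists, 14 of 45 integrated stress response genes were higher and 8 lower (31.1% and 17.8%). Endoplasmic reticulum stress genes counted 7 higher and 9 lower of 30 (23.3% and 30%). Of all tested genes 23.0% were higher and 20.0% lower. The roles of the integrated stress response list differed. Its ATF4 pathway regulators counted 10 higher and 2 lower of 17 (58.8% and 11.8%). Amino acid synthesis and transport genes counted 3 higher and 5 lower of 17, and cytosolic tRNA synthetases 1 and 1 of 11. SESN2, a stress-induced inhibitor of mTORC1, rose from 7.16 and 7.51 to 12.3 and 11.9 FPKM (log2 0.71, edgeR adjusted p 4.9e-07), and CREB3L1, a membrane-bound transcription factor, from 32.6 and 28.8 to 56.4 and 57.6 FPKM (log2 0.88, edgeR adjusted p 9.9e-08). Heat shock genes counted 5 higher and 6 lower of 19 (26.3% and 31.6%), and 3 higher without siControl replicate 2.

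LARP4B protein is linked with the translation machinery. Of 75 tested cytosolic ribosomal protein genes 34 were higher and 1 lower (45.3% and 1.33%, against 23.0% and 20.0% of all tested genes). Their log2 changes lay between -0.27 and 0.28, with a median of 0.09 against 0.04 over all tested genes. Over the alternatives the list median lay as little as 0.006 above that of all genes, and at most 33 members were higher. RPL13A rose from 2920 and 2660 to 3390 and 3410 FPKM (log2 0.28, SE 0.0537, edgeR adjusted p 0.00061). Against siLARP4A cells 70 of the 75 were higher (26.3% of all tested genes were), with a median of 0.26. Of 44 tested translation factors and poly(A)-binding or La-related proteins 10 were higher and 19 lower (22.7% and 43.2%), LARP4B among them. PABPC1, the cytoplasmic poly(A)-binding protein, rose from 719 and 704 to 891 and 889 FPKM (log2 0.31, edgeR adjusted p 1e-05). LARP7, a La-related protein of the 7SK particle, fell from 16.7 and 16.8 to 8.56 and 8.87 FPKM (log2 -0.95, edgeR adjusted p 2.7e-08), and EIF3D, an initiation factor subunit, from 90.4 and 86.1 to 52.3 and 51.1 FPKM (log2 -0.78, edgeR adjusted p 5.1e-09). Of 22 nucleolar factors 12 were lower (54.5%), among them NOLC1, from 67.5 and 67.9 to 39.2 and 38.7 FPKM (log2 -0.81, edgeR adjusted p 2.1e-08). In the mRNA decay list 19 of 45 were lower and 7 higher (42.2% and 15.6%). DCP2, the decapping enzyme, fell from 2 and 1.82 to 1.06 and 0.934 FPKM (log2 -0.94, edgeR adjusted p 5.5e-06).

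Of 54 tested matrix and adhesion genes 17 were higher and 20 lower (31.5% and 37%, against 23.0% and 20.0% of all tested genes). Of 28 tested proteases and inhibitors 8 were higher and 8 lower (28.6% each, against the same 23.0% and 20.0%). COL4A1, a basement membrane collagen, fell from 3.8 and 4.17 to 0.694 and 0.857 FPKM (log2 -2.38, SE 0.102, edgeR adjusted p 1e-10), and ITGA2, a collagen-binding integrin subunit, from 17.7 and 18.6 to 4.98 and 5.33 FPKM (log2 -1.82, edgeR adjusted p 1.5e-10). PLOD2, a collagen lysyl hydroxylase, fell from 29 and 28.5 to 9.27 and 9.9 FPKM (log2 -1.59, edgeR adjusted p 3.4e-09). SPARC, a secreted matrix glycoprotein, rose from 5.34 and 4.15 to 10 and 9.97 FPKM (log2 1.07, edgeR adjusted p 3.6e-07). The collagenase gene MMP13 fell from 5.21 and 5.22 to 1.65 and 2 FPKM (log2 -1.52, edgeR adjusted p 9.5e-06), whereas MMP17 rose from 6.44 and 5.84 to 13 and 13 FPKM (log2 1.07, edgeR adjusted p 8e-07). ADAM10, a membrane sheddase, fell from 6.27 and 6.3 to 2.92 and 2.84 FPKM (log2 -1.13, edgeR adjusted p 3.6e-10).

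In the list of actin and migration genes 10 of 44 tested were higher and 15 lower (22.7% and 34.1%, against 23.0% and 20.0% of all tested genes). ROCK2, a kinase that acts on actomyosin, fell from 10.8 and 11.5 to 4.25 and 4.75 FPKM (log2 -1.31, SE 0.0735, edgeR adjusted p 1.7e-09), and DIAPH3, a formin, from 5.4 and 5.35 to 2.46 and 2.46 FPKM (log2 -1.14, edgeR adjusted p 8.7e-08). TPM1, a tropomyosin, rose from 17.6 and 18.3 to 24.1 and 24.9 FPKM (log2 0.44, edgeR adjusted p 6.6e-05). Of 31 genes of epithelial and mesenchymal identity 3 were higher and 7 lower (9.68% and 22.6%). CLDN1, a tight junction claudin, rose from 3.64 and 4.9 to 7.29 and 8.49 FPKM (log2 0.87, edgeR adjusted p 0.00014) and CLDN3 fell from 23.9 and 21.7 to 14.8 and 14.6 FPKM (log2 -0.64, edgeR adjusted p 0.00028). VIM, vimentin, fell from 482 and 462 to 386 and 386 FPKM (log2 -0.30, edgeR adjusted p 4.5e-05). Mesenchymal markers summed to 10.7 to 12.1 FPKM in siControl and 10 to 10.4 in siLARP4B, and their part in these results was not tested.

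Transcript features moved with the calls. Across 5 equal groups of tested genes ordered by transcript GC content, the share that was lower went from 29.3% in the lowest to 11.5% in the highest, and the share that was higher from 15.5% to 31.2%. Set against the median of tested genes in the same GC group, the replication and mitotic lists had medians of -1.07 and -1.11. Among genes with no ATTTA pentamer in the 3′ untranslated region 16.2% were lower, against 29.4% of the 3569 genes with 6 or more. GC content, untranslated region length and pentamer count are related features, and the part of each was not tested.

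**Figure D5:**
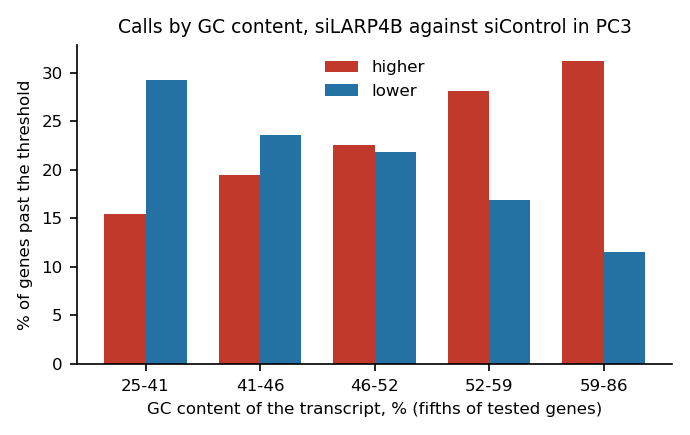
Share of tested genes higher (red) and lower (blue) in siLARP4B against siControl in PC3, in 5 equal groups by GC content of the transcript in percent. The lower share goes from 29.3% in the lowest group to 11.5% in the highest.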

How the data were processed

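Poly(A) RNA of PC3 and MG63 cells was sequenced in 12 libraries, 6 groups of 2. The authors deposited, per the file headers, a fragment count and an FPKM value per gene model for each library. FastQC, HISAT2, featureCounts, edgeR and build hg38 are named in the submitters' processing notes, and their roles, the annotation and the strand setting are not given in the sources used here. Reads of overlapping genes may therefore be counted for either. A second table of siControl replicate 2 without duplicates entered only as an alternative.

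Where a symbol had several models on chromosomes 1 to 22 or X, the one whose fragments summed highest across all 12 libraries represented it (28163 symbols). Counts were fitted in edgeR 4.0.16 (R 4.3.3) over all 12 libraries with TMM scaling, filterByExpr and the quasi-likelihood F-test, and p-values were adjusted by Benjamini-Hochberg over 16065 genes, at a threshold of 0.05. The biological coefficient of variation was 5.47%. FPKM values did not enter the main test. They were printed, summed for the marker lists and used for a minimum mean of 5 FPKM. That minimum applied to the choice of the 12 highest and 12 lowest genes and to 1 alternative fit. Another alternative was fitted on log2(FPKM + 1). With 2 libraries per group, p-values rest on a spread estimated within all 6 groups together, MG63 included, and drawn toward that of other genes. They do not measure the spread of the 4 compared libraries alone. On simulated counts for siLARP4B against siControl over 16065 genes, 85 of 100 genes changed by 0.5 log2 and 100 of 100 changed by 1 log2 were called, with 14 of 15865 unchanged genes. The changed genes were drawn only from those above a minimum mean level. All other genes were simulated alike in all groups with the fitted spread, so these rates may be better than those in the data. Alternatives were DESeq2 1.42.0, limma 3.58.1, other scalings, filters and library sets, and leaving out each library.

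The gene lists and the comparison were chosen with earlier results of these data known. Named were LARP4B and LARP4, the 12 highest and 12 lowest genes past the threshold whose mean reached 5 FPKM in siControl or siLARP4B, groups apart, a model of at least 300 bases and 1 locus, and per list role the up to 5 members past the threshold with the largest change plus preset members and marker genes. Genes named outside this rule are said to be. GC content and untranslated regions came from GENCODE release 29 (matched for 94.2% of tested genes), and promoters from RefSeq, GRCh38.p14. Overlaps of at least 20% of the exonic bases of a gene named by that rule with another gene are given beside it.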

Additional observations from a re-analysis of the deposited data

Results flagged for a closer look

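The effect of siLARP4B differed between PC3 and MG63 for 4045 genes by the edgeR test of the difference at an adjusted p under 0.05 (25.2% of those tested). Among list members the effect differed for 51 replication genes, 53 mitotic genes, 23 repair genes, 26 interferon-stimulated genes and 22 glycolysis and hypoxia genes. For 6 genes described above, the change passed the threshold in both lines and in opposite directions. The log2 effect in PC3 minus that in MG63 was 1.64 for ABCC3, an efflux transporter. For STING1, the adaptor of DNA sensing, it was 1.40, and for NFKBIA, the NF-kB inhibitor, 0.97. It was 0.88 for CDKN1A, the CDK inhibitor gene. AURKA, the centrosomal kinase gene, differed by -0.98, and UBE2L6, an ISG15-conjugating enzyme, by -0.96. With 2 libraries per group, no check for a library far from the others of its group could be made.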

How the results depend on the processing

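Of 728 recomputed list counts 667 were within 1.5 times of the reported ones and 61 were not. Among the latter were, at their extremes, respiratory chain genes (0 to 12 higher, 7 to 16 lower), ribosomal protein genes (17 to 33 higher) and apoptosis regulators (4 to 10 higher, 1 to 6 lower). Over all genes, those at least 2-fold higher moved (324 with DESeq2, 68 with limma on log2(FPKM + 1), 71 at a mean FPKM of at least 5, and 431 to 511 leaving out a library) as did those 2-fold lower (190 with limma, 258 at that FPKM, 414 to 441). Genes higher in PC3 against MG63 were 1103 with DESeq2 and 1057 to 1451 leaving out a library (1057, 1139 and 1169 without MG63 siControl replicate 1, siControl replicate 2 and siLARP4B replicate 2). Interferon-stimulated members lower were 2 at that FPKM and 1 to 3 leaving out a library, and glycolysis and hypoxia members higher were 1 with DESeq2, limma, the deduplicated library and each library left out. All called genes were 5305 to 5558 leaving out a PC3 library of the comparison. The share of calls that were higher was 45% to 55.6% over the alternatives, against 53.4%. E2F3 changed sign, to -0.003, with the deduplicated library. The cause was not tested. Deviations of same-numbered PC3 siControl and siLARP4B libraries from their group means correlated at r 0.0137 over all tested genes. Counting noise of genes with few fragments lowers such a correlation, so it cannot decide whether the libraries were paired. With the replicate block 3581 genes were higher and 3145 lower, and 2 interferon-stimulated members lower.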

Other observations

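Of 33 tested lysosome and autophagy genes 16 rose and 4 fell (23.0% of all tested genes were higher and 20.0% lower), with a median log2 change of 0.16. CTSD, the protease cathepsin D, rose from 132 and 125 FPKM to 193 and 190 FPKM (log2 0.56, edgeR adjusted p 9.3e-08), with 41.7% of its exonic bases shared with AC068580.4. PSAP, the precursor of the saposins, rose from 246 and 238 to 351 and 337 FPKM (log2 0.50, edgeR adjusted p 4.2e-07). WIPI1, an autophagosome protein, rose from 9.14 and 9.63 to 17.3 and 17.4 FPKM (log2 0.88, edgeR adjusted p 1.4e-07), with 24.3% shared with ARSG, and ULK1, the kinase that starts autophagy, from 16 and 14.3 to 22.5 and 22.1 FPKM (log2 0.55, edgeR adjusted p 4.6e-06). CTSZ, cathepsin Z, fell from 110 and 105 to 71.9 and 67.4 FPKM (log2 -0.64, edgeR adjusted p 4.9e-07).

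Of 33 tested apoptosis regulators 11 were higher and 3 lower (33.3% and 9.09%, against 23.0% and 20.0% of all tested genes). Without siControl replicate 1 or 2 the counts higher were 4 and 6, without siLARP4B replicate 1 or 2 they were 5 and 6, and the lower count was 1 without either siLARP4B library. BMF, a BH3-only protein, rose from 0.807 and 0.705 to 2.09 and 2.82 FPKM (log2 1.69, edgeR adjusted p 5.5e-06), and CASP4, an inflammatory caspase, from 9.7 and 9.26 to 14.9 and 15.9 FPKM (log2 0.69, edgeR adjusted p 2.7e-06). CASP6, an effector caspase, fell from 7.46 and 9.99 to 4.02 and 4.19 FPKM (log2 -1.10, edgeR adjusted p 3.1e-05). Among growth factor genes, HBEGF, a ligand of the EGF receptor, rose from 6.8 and 6.88 to 11.8 and 10.9 FPKM (log2 0.72, edgeR adjusted p 2.1e-06), whereas AREG, another ligand, fell from 70.1 and 69.8 to 45.6 and 48.1 FPKM (log2 -0.59, edgeR adjusted p 7.6e-06). In the list of growth factor and MAPK genes 13 of 58 were higher and 16 lower (22.4% and 27.6%). Sterol genes counted 6 higher and 12 lower of 37 (16.2% and 32.4%), with STARD4, a cholesterol carrier, from 6.04 and 6.04 to 2.14 and 2.25 FPKM (log2 -1.47, edgeR adjusted p 2.2e-07). Among G protein subunits 6 of 21 were higher and 2 lower (28.6% and 9.52%), and 1 was lower without siControl replicate 1 and 1 without siLARP4B replicate 2.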
